A study of Mus musculus with 2 samples.

Results

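The 10 genes described here belong to the Hippo pathway and its YAP/TEAD output. They are the coactivators Yap1 and Wwtr1, the DNA-binding partners Tead1 and Tead3, the kinases Lats1 and Lats2, and the target genes Ctgf, Cyr61, Ankrd1 and Amotl2. The rule that picks them uses gene symbols and no measured value, although earlier results of these data were known when the list was drawn up. Each was measured by 1 probe set that names that gene alone. All 10 were found among the 29456 genes of the array table. The organoids were 3-dimensional cultures of squamous cells from the mouse forestomach, where rodents carry a squamous lining, and their RNA was read on whole-transcript Affymetrix arrays (Mouse Gene 2.0 ST). The SOX2 KO culture came from mice of genotype Krt5CreER/+; Sox2∆/∆; ROSA26tdTomato/+, in which the Krt5 promoter drives a tamoxifen-inducible Cre in squamous cells and tdTomato marks recombined cells. The other culture was labelled WT control and came from a mouse that the submitters call wildtype. The study describes its controls as littermates without the Cre allele. By the study's methods, both cultures grew in Matrigel in keratinocyte medium with EGF, calcium, pituitary extract and the kinase inhibitor Y-27632. Ages of the mice and passage of the cultures were not used here. Each group had 1 array, so genotype cannot be told apart from mouse, culture or array, nor loss of Sox2 from Cre or tdTomato if the control lacked them. There is no replicate check on any difference and therefore no p-value.

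The Hippo pathway restrains growth. The kinases MST1 and MST2 activate LATS1 and LATS2, which phosphorylate YAP and TAZ (the product of Wwtr1) and hold them in the cytoplasm. Unphosphorylated YAP and TAZ enter the nucleus, bind TEAD factors and switch on genes such as Ctgf and Cyr61. In squamous epithelium YAP is known for its activity in basal, proliferating cells. Much of this control acts on the proteins, which an RNA array does not measure.

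The signal is the log2 value deposited for each array, and each difference is SOX2 KO minus WT control on the log2 scale. Of all genes, 15983 reached the floor on 1 or both arrays, the floor being the median signal of all genes (3.3). Olfactory receptor genes, taken as unexpressed in these organoids, gave a stand-in for background: 95% of their values lay at or below 3.84, and the SD of their difference was 0.26 over 1127 genes. Signals of different probe sets are not set against each other, since probes differ in brightness. Sox2, the deleted gene, had a signal of 2.53 in SOX2 KO and 5.74 in WT control organoids, a difference of -3.21. Basal keratinocyte markers were present in both libraries, with Krt5 at 8.71 in SOX2 KO and 8.86 in WT control organoids.

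The YAP/TEAD genes were close to level between the libraries. None of the 8 that reached the floor was 2-fold higher in SOX2 KO organoids, against 2.01% of all genes above the floor, and none was 2-fold lower, against 0.795%. At 1.5-fold the count was also 0 of 8 in each direction, where 6.45% of all genes were higher and 4.43% lower. Since so few genes pass either threshold, 0 of 8 is near what the background holds. Of the 8 genes, 2 were higher, 4 lower and 2 equal, with a median difference of -0.045, against 0.00 over all genes above the floor. The size of the difference had a median of 0.10 over the 8 genes and 0.22 over all genes above the floor. Only Tead3 differed by more than the olfactory receptor SD, while 58.5% of all genes above the floor lay within it. Lats2 and Ankrd1 did not reach the floor on either array. Ctgf and Cyr61 count among the 8 but lay under the background stand-in in both libraries, where a difference is hard to see. Only 6 of the 10 genes were over the stand-in in both.

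**Figure D1:**
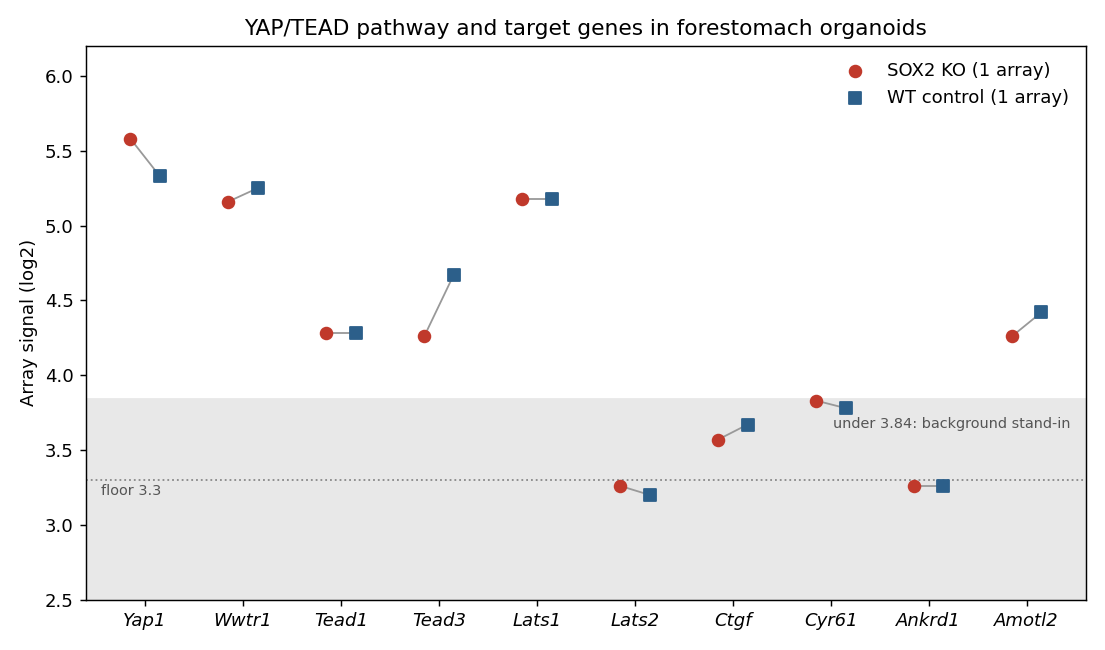
Log2 array signal (vertical axis) of the 10 YAP/TEAD genes, with SOX2 KO as red circles and WT control as blue squares, 1 array each. Points of each gene lie near each other, Tead3 is the furthest apart at -0.41, and Lats2, Ctgf, Cyr61 and Ankrd1 lie in the grey zone under the background stand-in of 3.84 in both libraries.

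Both coactivators were measured well above background. Yap1, which encodes YAP, had a signal of 5.58 in SOX2 KO and 5.33 in WT control organoids, a difference of 0.25 or 1.19-fold higher. This was just under the olfactory receptor SD, and 22.6% of genes above the floor were higher by as much or more. Wwtr1, which encodes the YAP paralog TAZ, had 5.16 in SOX2 KO and 5.25 in WT control organoids, a difference of -0.09. The paralogs thus differed in opposite directions, each by little. The Yap1 probe set (17523883) spans chr9:7931999-8004596 on the minus strand (mm10), and that of Wwtr1 (17405365) spans chr3:57455644-57575910 on the minus strand. Each covers nearly the whole RefSeq gene.

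The TEAD factors carry YAP and TAZ to DNA. Tead1 had an identical deposited signal of 4.28 in SOX2 KO and WT control organoids. Tead3 had 4.26 in SOX2 KO and 4.67 in WT control organoids, a difference of -0.41 or 1.33-fold lower. It was the furthest apart of the 10 genes, but 10.8% of genes above the floor were lower by as much or more. The probe set of Tead1 (17481936) spans chr7:112679318-112906807 on the plus strand, and that of Tead3 (17342829) spans chr17:28331671-28350805 on the minus strand. The other family members differed in both directions. Tead4 had 4.18 in SOX2 KO and 3.83 in WT control organoids, a difference of 0.35 with the control value just under the background stand-in. Tead2 differed by -0.35 (3.23 in SOX2 KO and 3.58 in WT control), with both values under it.

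The VGLL proteins are further TEAD partners, and VGLL4 competes with YAP for TEAD binding. Vgll3 had 4.22 in SOX2 KO and 4.50 in WT control organoids, and Vgll4 had 3.94 in SOX2 KO and 4.04 in WT control. Vgll1 and Vgll2 were below the floor in both libraries. Over the 4 of 6 other TEAD and VGLL genes above the floor, 1 was higher and 3 lower, none past 1.5-fold, and the median difference was -0.19. It was -0.10 with no floor.

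LATS1 and LATS2 are the kinases that phosphorylate YAP and TAZ. Lats1 had the same deposited signal of 5.18 in SOX2 KO and WT control organoids. Lats2, itself a YAP target, had 3.26 in SOX2 KO and 3.20 in WT control organoids, under the floor in both. A lower Lats2 level could be missed at that signal. Its probe set (17307184) spans chr14:57689662-57758388 on the minus strand, and that of Lats1 (17231545) spans chr10:7681209-7716461 on the plus strand. Exact equality to the second decimal, as in Tead1, Lats1 and Ankrd1, was seen in 2.85% of all genes above the floor. Of the 3 genes, Ankrd1 is below that floor.

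Of the Hippo kinases and upstream regulators, 31 of 33 above the floor lay within 1.5-fold. That was close to the share of all genes above the floor that did, 89.1%. The list, called upstream genes below, also holds genes that are not upstream of LATS, such as Stk38 and Stk38l. The core cassette comprises MST1 and MST2 (Stk4 and Stk3), their scaffold SAV1 and the MOB1 cofactors. Stk3 differed by 0.23 (5.35 in SOX2 KO and 5.12 in WT control) and Stk4 by -0.29 (4.15 in SOX2 KO and 4.44 in WT control). Sav1 differed by 0.34, and Mob1a and Mob1b by 0.11 each. Nf2, which encodes the upstream activator merlin, had 4.94 in SOX2 KO and 4.66 in WT control organoids. These values place the cassette on both sides of 0 with no member past 1.5-fold.

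Of the upstream genes, Map4k5 was the one higher past 1.5-fold and Stk38l the one lower. MAP4K and TAO kinases can act in parallel with MST or above it. Map4k5 was 1.59-fold higher, at 6.28 in SOX2 KO and 5.61 in WT control organoids. Its relatives Map4k3 (-0.41) and Map4k4 (-0.26) differed the other way. Among the TAO kinases, Taok3 differed by 0.41, Taok1 by 0.23 and Taok2 by -0.24. Stk38l, which encodes the LATS-related kinase NDR2, had 3.04 in SOX2 KO and 3.92 in WT control organoids. Since the SOX2 KO value lay under the background stand-in, Stk38l was at least 1.06-fold lower, a bound far smaller than its difference of -0.88. Stk38, which encodes its paralog NDR1, had 3.80 in SOX2 KO and 4.22 in WT control organoids, at least 1.30-fold lower.

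Wwc1, which encodes the scaffold KIBRA, had 4.02 in SOX2 KO and 3.63 in WT control organoids, at least 1.13-fold higher. The brightest upstream probe sets, Mob4 (7.50 in SOX2 KO and 7.60 in WT control) and Strn3 (7.30 in SOX2 KO and 7.46 in WT control), differed by -0.10 and -0.16. Both encode parts of the STRIPAK phosphatase complex, which opposes MST. Of 39 upstream genes on the array, 33 reached the floor. Among these 13 were higher, 19 lower and 1 equal, with a median of -0.02. None was past 2-fold, where 2.01% of all genes were higher and 0.795% lower. Past 1.5-fold 1 was higher (6.45% of all genes) and 1 lower (4.43% of all genes), the lower one being Stk38l with its bound of 1.06-fold.

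The standard target genes lay at or near background in both libraries. Ctgf (named Ccn2 in RefSeq) encodes a secreted matricellular protein and is the most used readout of YAP activity. Its signal was 3.57 in SOX2 KO and 3.67 in WT control organoids. Cyr61 (Ccn1), which encodes a related protein, had 3.83 in SOX2 KO and 3.78 in WT control organoids. Ankrd1, which encodes an ankyrin-repeat protein first known from cardiac muscle, had 3.26 in both. All 6 values were under the background stand-in, so no fold is given. A lower level in SOX2 KO organoids could be missed by these probe sets. In bulk RNA, fewer cells of a type and less RNA per cell cannot be told apart.

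Amotl2 was the only one of the 4 target genes above the background stand-in. It encodes an angiomotin that binds YAP and holds it out of the nucleus, and it is itself induced by YAP. Its signal was 4.26 in SOX2 KO and 4.42 in WT control organoids, a difference of -0.16 or 1.12-fold lower, and 31.8% of genes above the floor were lower by as much or more. Its relative Amotl1 had 5.14 in SOX2 KO and 5.31 in WT control organoids, and Amot was below the floor in both. The probe sets of Ctgf (17232235; chr10:24595442-24598683, plus strand), Cyr61 (17410974; chr3:145646971-145649985, minus strand) and Ankrd1 (17364176; chr19:36111965-36119844, minus strand) match the RefSeq gene spans. That of Amotl2 (17520856) spans chr9:102716672-102733418 on the plus strand.

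The promoters of the target genes show the sequence that TEAD factors read. The core motif is GGAATG, or CATTCC on the other strand, and was searched on both strands in the 250 bases before each RefSeq start (GRCm38.p6). In capitals below are the TEAD cores of 3 target genes near background or level here. For F3, a target gene with a large difference, matches to the AP-1 motif searched as TGANTCA are in capitals. That pattern is looser than the usual AP-1 site TGA(C/G)TCA, which TGAGTCA in F3 fits and TGAATCA does not. In the broader target list below, F3 alone of 24 genes with a promoter held TGANTCA (4.17%, against 7.82% of all genes). The sequences are RefSeq's, 5′ to 3′ on the gene's strand. That of Amotl2 lies inside the RefSeq span of the gene and is cut to 30 bases.
Cyr61 (chr3:145649986-145650235, minus strand): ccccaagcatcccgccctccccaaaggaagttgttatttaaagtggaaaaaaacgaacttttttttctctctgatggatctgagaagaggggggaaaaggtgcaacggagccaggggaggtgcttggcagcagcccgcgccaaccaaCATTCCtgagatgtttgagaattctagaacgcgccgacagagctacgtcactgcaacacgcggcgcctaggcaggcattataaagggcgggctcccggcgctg
Ankrd1 (chr19:36119845-36120094, minus strand): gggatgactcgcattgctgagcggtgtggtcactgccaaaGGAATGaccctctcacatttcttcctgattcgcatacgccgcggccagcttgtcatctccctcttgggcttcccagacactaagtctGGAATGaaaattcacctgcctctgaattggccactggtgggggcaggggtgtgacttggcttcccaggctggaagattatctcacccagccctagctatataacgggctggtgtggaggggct
Amotl2 (chr9:102717727-102717756, plus strand): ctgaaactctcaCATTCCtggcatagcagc
F3 (chr3:121723287-121723536, plus strand): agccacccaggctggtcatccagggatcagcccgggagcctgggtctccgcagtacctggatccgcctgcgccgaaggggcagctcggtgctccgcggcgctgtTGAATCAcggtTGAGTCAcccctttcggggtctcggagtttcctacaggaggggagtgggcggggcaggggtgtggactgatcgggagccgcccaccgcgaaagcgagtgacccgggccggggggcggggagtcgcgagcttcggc

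The TEAD core began at position -103 from the start in Cyr61, at -210 and -123 in Ankrd1, and at -65 in Amotl2. The Amotl2 window (chr9:102717554-102717853) belongs to a start within the gene, whose RefSeq span begins at 102717091. Its core is therefore not upstream of the whole gene. It was also found at -141 in Yap1, in Wwtr1 (at -136 or -170, by which of its 2 RefSeq starts is counted) and before 2 of the 3 starts of Tead3. It was not in the windows of Lats1 and Lats2. In all, 6 of the 8 genes with a sequence in the RefSeq promoter table used here held it, against 14.4% of 27025 genes. Tead1 and Ctgf are not among the 8. The AP-1 motif was in 0 of the 8 (7.82% of all genes). The SOX core motif CATTGT or ACAATG, which shares its first 4 bases with one TEAD strand, was also in 0 of the 8 (12.2% of all genes). A motif match is not a binding site, and a missing match says only that these letters are not in the window.

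**Figure D2:**
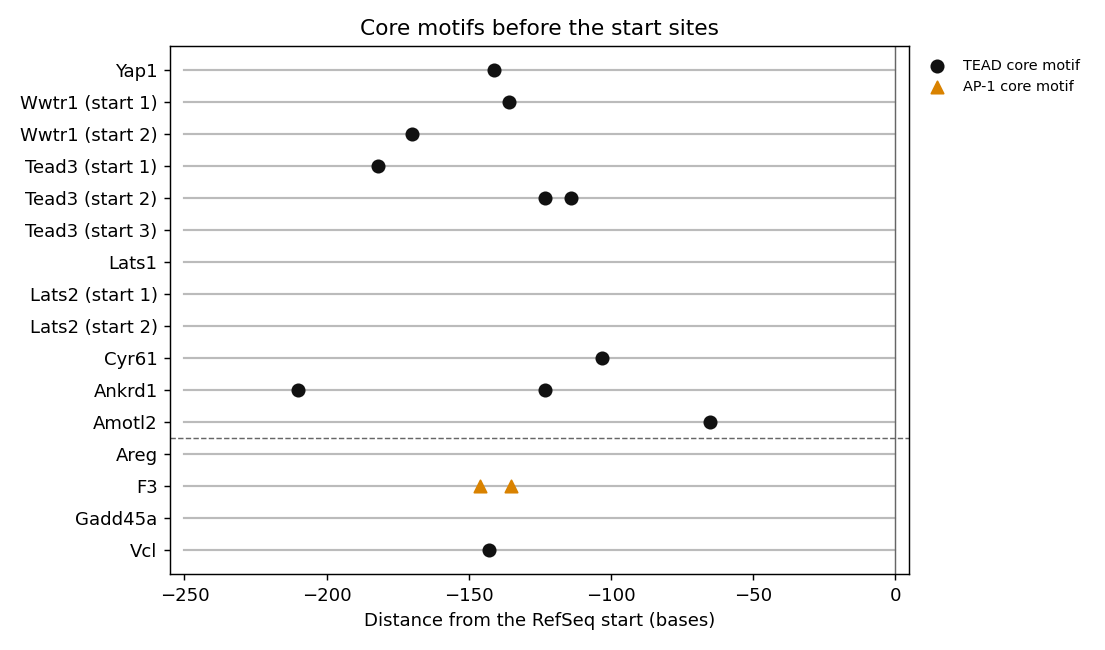
Positions of core motifs (horizontal axis, bases from the RefSeq start) in the 250 bases before the starts of YAP/TEAD genes, above the dashed line, and of 4 other target genes, below it. Black circles are TEAD cores and orange triangles AP-1 motifs. The AP-1 pattern TGANTCA is at -146 and -135 in F3 and in none of the other promoters drawn. Only the match at -135 fits the stricter TGA(C/G)TCA.

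A broader list of YAP/TAZ target genes held larger single differences than the 10 genes above, with Areg and F3 the lowest. All 38 were on the array and 33 reached the floor, of which 9 were higher and 24 lower. The median difference was -0.19, against 0.00 over all genes above the floor, and the size of the difference had a median of 0.37. Past 2-fold, 4 of the 33 genes were lower and 0 higher. That is 4 of 33 where the background share is 0.795%. But the list was drawn up with the differences of Areg, F3 and Gadd45a already known, so its counts and median are description only. Ajuba, Amotl1, Nf2, Ptpn14 and Wwc1 stand in this list and in the upstream list.

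The 4 genes lower past 2-fold were Areg, F3, Gadd45a and Fosl1. Areg, a ligand of the EGF receptor, had 4.40 in SOX2 KO and 6.55 in WT control organoids, 4.44-fold lower. F3, which encodes tissue factor, the starter of coagulation, had 4.34 in SOX2 KO and 6.39 in WT control organoids, 4.14-fold lower. Gadd45a, a DNA damage response gene, had 6.44 in SOX2 KO and 7.64 in WT control organoids, 2.30-fold lower. Fosl1, which encodes the AP-1 subunit FRA1, had 4.48 in SOX2 KO and 5.50 in WT control organoids, 2.03-fold lower and just past the threshold. As background, Areg and Fosl1 are also induced by EGF receptor and ERK signaling, and Gadd45a by p53.

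Several further targets were lower by 1.5-fold or more. Ereg, another EGF receptor ligand, had 4.78 in SOX2 KO and 5.44 in WT control organoids. Igfbp3, which binds insulin-like growth factors, had 6.28 in SOX2 KO and 6.92 in WT control organoids. Nt5e (2.91 in SOX2 KO and 3.74 in WT control) and Edn1 (3.17 in SOX2 KO and 3.78 in WT control) also passed 1.5-fold but lay under the background stand-in in both. In all, 8 of the 33 genes were lower past 1.5-fold by their signals, Nt5e and Edn1 included, where 4.43% of all genes above the floor were. This count too is a description only, since it holds Areg, F3 and Gadd45a, whose differences were known when the list was drawn up.

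The 2 targets higher past 1.5-fold were Vcl and Asap1, where 6.45% of all genes above the floor were higher. Vcl, which encodes the focal adhesion protein vinculin, had 6.13 in SOX2 KO and 5.37 in WT control organoids, 1.69-fold higher. Asap1, an ARF GTPase activator, had 5.51 in SOX2 KO and 4.91 in WT control organoids. The growth genes Myc (8.35 in SOX2 KO and 8.68 in WT control) and Ccnd1 (7.00 in SOX2 KO and 7.07 in WT control) differed by less than 1.5-fold. Of the 24 listed genes with a RefSeq promoter, 6 (25%) held the TEAD core, Vcl among them at -143, against 14.4% of all genes. The AP-1 motif was in 1 (4.17%), which was F3, against 7.82% of all genes. Neither motif was found before the starts of Areg or Gadd45a, and Fosl1 had no promoter sequence to search.

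**Figure D3:**
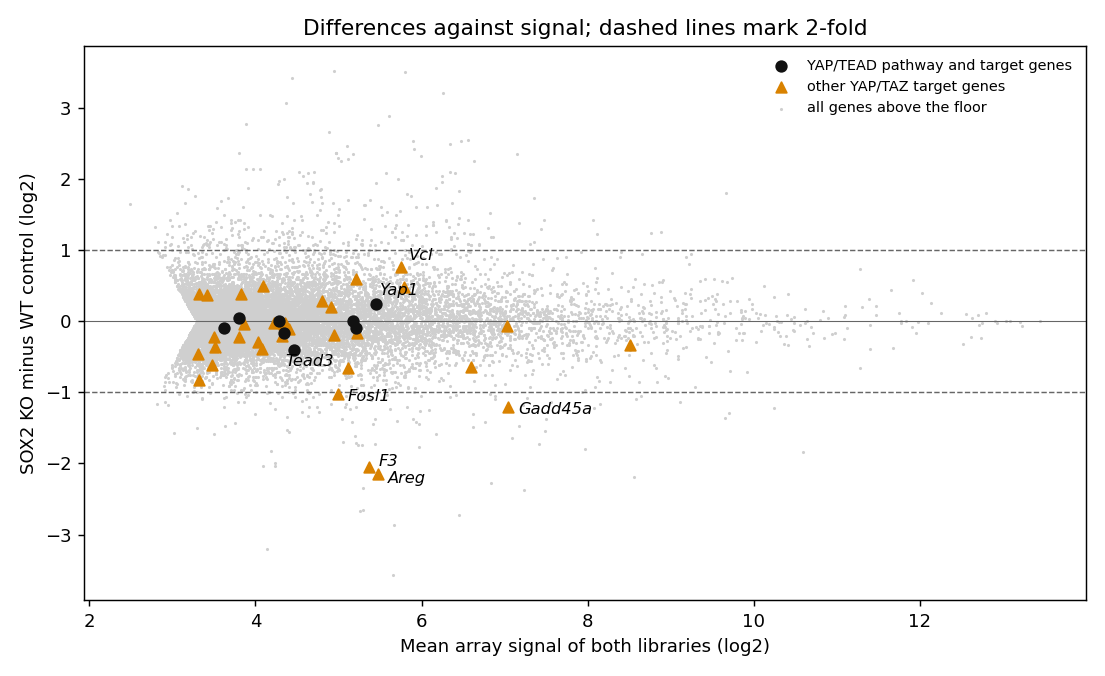
SOX2 KO minus WT control difference (vertical axis, log2) against mean signal (horizontal axis, log2) for all 15983 genes above the floor in grey, YAP/TEAD genes as black circles and other YAP/TAZ targets as orange triangles. Black circles stay between -0.41 and 0.25, while Areg, F3, Gadd45a and Fosl1 lie below the lower 2-fold line.

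**Figure D4:**
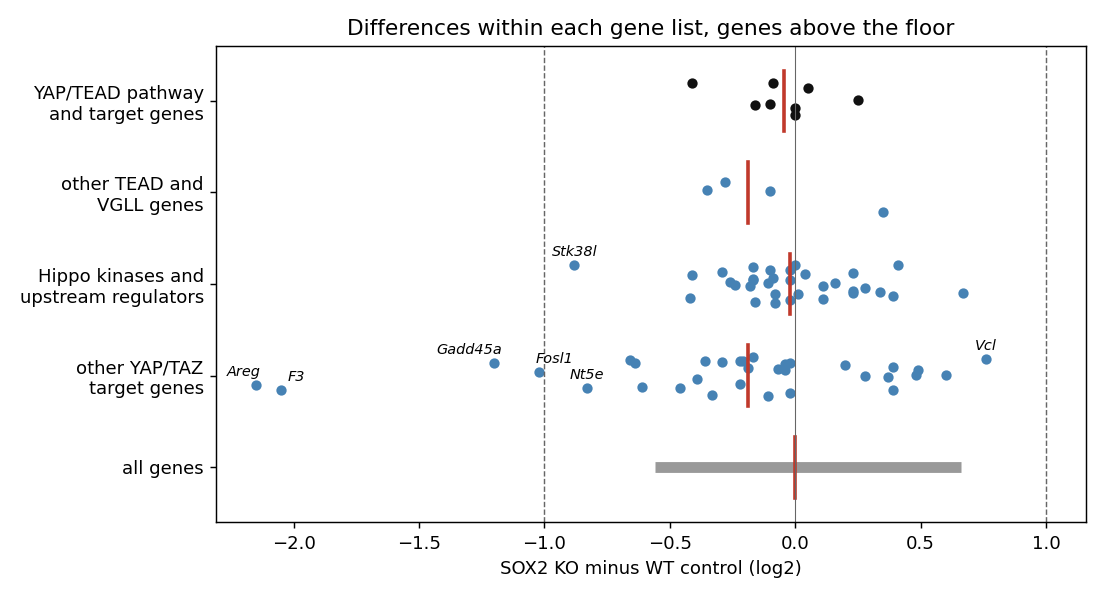
Each point is 1 gene above the floor, placed by its SOX2 KO minus WT control difference (horizontal axis, log2), with red bars at list medians and points spread vertically for sight only. The grey bar spans the 5th to 95th percentile of all genes above the floor (-0.56 to 0.66), and the medians are -0.045, -0.19, -0.02 and -0.19 from the top list down.

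Markers of other cell types also differed between the same 2 libraries, counted here by their signals as deposited. Beside these counts, 2.01% of all genes above the floor were past 2-fold higher in SOX2 KO organoids and 0.795% lower. Of 10 smooth muscle markers, 9 reached the floor and 4 of them (Acta2, Myh11, Cnn1 and Actg2) were past 2-fold higher in SOX2 KO organoids. Acta2 had 7.05 in SOX2 KO and 4.16 in WT control organoids. Cnn1 and Actg2 had control values under the background stand-in, so they were at least 1.61-fold and at least 2.64-fold higher. The summed linear signal of the list was 359 in SOX2 KO and 123 in WT control organoids. A summed signal is weighted toward the brightest probe sets, so it does not describe every gene of a list. Of 12 fibroblast markers, 9 reached the floor and 2 (Dcn and Postn) were past 2-fold higher. The sums were 191 in SOX2 KO and 124 in WT control. Of the 9, 6 were higher and 3 lower, Thy1 among the lower with 3.45 in SOX2 KO and 4.04 in WT control. Dcn, the brightest fibroblast marker in SOX2 KO organoids, had 5.90 there and 2.83 in WT control, at least 4.17-fold higher. Of the fibroblast markers 7 lay under the background stand-in in both libraries, Postn and Pdgfra among them, as did 3 of the smooth muscle markers. Both cell types are known to express Ctgf, Cyr61 and much Vcl. The part of these cells in the Vcl difference was not tested.

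Of 8 endothelial markers 5 reached the floor with none past 2-fold, and 7 of the 8 lay under the background stand-in in both libraries (sums 73.5 in SOX2 KO and 80.8 in WT control). Of 8 leukocyte markers 3 reached the floor, and Lyz2 alone was past 2-fold by its signal, at least 1.62-fold higher by its bound. The sums were 239 in SOX2 KO and 199 in WT control organoids. Cd68, the brightest of the list, had 7.39 in SOX2 KO and 7.18 in WT control organoids. Ptprc, which defines leukocytes, was under the stand-in at 3.08 in SOX2 KO and 2.75 in WT control. Of 10 gastric columnar markers 9 reached the floor, and Krt19 alone was past 2-fold by its signal, at least 1.48-fold higher by its bound. The sums of that list were 310 in SOX2 KO and 276 in WT control. Among 12 basal squamous markers Krt15 alone was at least 2-fold higher (sums 1620 in SOX2 KO and 1380 in WT control). Of 12 suprabasal markers 5 were lower past 2-fold and 4 higher, where 0.795% of all genes above the floor were lower and 2.01% higher. Tgm3, among the higher ones, was at least 1.95-fold higher by its bound. The sums of the suprabasal list were 1820 in SOX2 KO and 3620 in WT control. The part of suprabasal cells in the differences of Areg, F3, Gadd45a and Fosl1 was not tested.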

How the data were processed

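Total RNA of 2 organoid cultures was measured, 1 array for each group, and groups followed the submitters' labels. Per the submitters' processing notes, arrays were processed in Transcriptome Analysis Console, and the log2 signals deposited by the authors are rounded to 2 decimals. How probe sets were summarized is not given in the sources used here. Positions follow the mm10 annotation of the deposited table. The fold change and p-value columns deposited by the authors hold their own comparison and were not used. The value table of the series had identical numbers (0 differed).

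A gene was a probe set with exactly 1 symbol, that of highest mean signal where several existed (29456 genes from 29971 of 34472 probe sets). The floor, background stand-in and differences are defined with the results. A value in the dimmer library under the stand-in was replaced by it and the fold written as at least N-fold. With 1 array a group no test was run, and the number of arrays limits the precision. Counting was checked on simulated data with planted differences well past 2-fold and noise set by the olfactory receptor SD. That checks the code only and holds no variation between mice or cultures.

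The 10 genes and all gene lists were chosen with earlier results of these data known. All 10 are reported. From each other list, genes past 2-fold, the 6 next largest differences and the 4 highest signals were eligible, as were markers past 2-fold. The core kinase cassette, Nf2, Map4k4, Taok1, Taok2, Amotl1, Amot, Krt5, Pdgfra and Ptprc were named for their role after values were seen. Of the 10 symbols, 10 matched RefSeq (Ctgf and Cyr61 as synonyms) and 8 had promoters there. Alternatives were 3 scalings (median centring, quantile, and loess with span 0.3), the series value table, the mean of probe sets, 3 other floors, 1.5-fold and 3-fold thresholds, and the mean of a list. Python 3.11.15, pandas 2.3.3 and statsmodels 0.14.6 were used.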

Additional observations from a re-analysis of the deposited data

Results flagged for a closer look

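A second probe set carries the name of Lats2 together with that of Xpo4, and was left out of the comparison because it names 2 genes. It was flagged because its signal lies outside the genes compared and is higher in SOX2 KO than in WT control organoids. The signal was 4.65 in SOX2 KO and 4.41 in WT control organoids, a difference of 0.24, which is smaller than the olfactory receptor SD of 0.26. The probe set (17307157) spans chr14:57581002-57665430 on the minus strand (mm10) and ends before the RefSeq span of Lats2 begins (57689662). Its signal therefore cannot be assigned to Lats2.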

How the results depend on the processing

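No paired analysis was possible because a single array stood for either group, and no array could be left out. A gene's difference was taken to have moved past the olfactory receptor SD of 0.26, a list median past 0.1, and a count past 1.5 times. Of 216 values under the alternatives, 207 stayed within these limits and 9 moved, all of them counts at another fold threshold, as the threshold itself requires. Part of the 207 could not have moved. The series value table held identical numbers, every gene of these lists has 1 probe set, and a list with no gene past 2-fold has none past 3-fold. The count of 207 therefore overstates how much was checked. None of the 10 genes passed 1.5-fold, 2-fold or 3-fold under the settings run. At 1.5-fold, 1031 genes were higher and 708 lower; among upstream regulators 1 was higher and 1 lower, and among other targets 2 were higher and 8 lower. At 3-fold, 80 genes were higher and 28 lower, with 2 other targets lower. Yap1 ranged from 0.20 to 0.26 and Tead3 from -0.45 to -0.40, both with quantile scaling at the low end. Tead1 (-0.02 to 0.01) and Lats1 (-0.04 to 0.01) took either sign under the 3 scalings. The median of the 10 genes was 0.00 with no floor. The mean of probe sets could not move the 10 genes, each of which has 1. Signals under 3.84, those of Lats2, Ctgf, Cyr61 and Ankrd1 among them, lie in the background range, where a lower level could be missed.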
